A study of Mus musculus with 12 samples.

Results

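The genes described here are 40 mouse genes of the lysosome and of the machinery that controls it. They were chosen by function (MiT/TFE transcription factors, Rag GTPase and folliculin genes, autophagy genes, lysosomal membrane proteins, luminal enzymes and proton pump subunits), with the higher counts of Rragd and Creg1 in hyperoxia already known from these samples. All 40 were found among the 23478 genes of the count table, and all 40 passed the filter on low counts that left 15761 genes for testing. RNA came from lungs of newborn C57/Bl6 mice from which the bronchoalveolar lavage fluid had been removed. On day 0 the mice received an intraperitoneal injection of saline or of aurothioglucose (ATG, 25 mg/kg), a gold drug known as an inhibitor of thioredoxin reductase. They were then kept in room air or in more than 95% oxygen (hyperoxia) for 72 hours. The 4 groups of 3 samples were saline in room air, ATG in room air, saline in hyperoxia and ATG in hyperoxia, and no group carried a genetic change. The labels do not say whether a sample was 1 animal or a pool, so the p-values measure only the spread between these samples.

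Lysosomes are acidic organelles in which hydrolases break down proteins, glycans and lipids delivered by endocytosis and autophagy, and the V-ATPase pumps protons into them. When amino acids are plentiful, Rag GTPases on the lysosome surface recruit the kinase complex mTORC1, which phosphorylates TFEB and TFE3 and holds them in the cytoplasm. When mTORC1 is low or lysosomes are damaged, these factors enter the nucleus and bind short E-box sequences in the promoters of many lysosomal and autophagy genes. Their activity is set largely by phosphorylation and location, which RNA counts do not measure. In the lung, macrophages and alveolar type 2 cells, which store surfactant in lysosome-related lamellar bodies, are rich in lysosomal proteins.

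The E-box core that these factors bind is CACGTG, and its 8-base form TCACGTGA is the centre of the motif shared by many lysosomal genes. Both read the same on the 2 strands, and every TCACGTGA also counts as a CACGTG. RefSeq promoter windows of GRCm38.p6, from 250 bases before to 50 bases after each transcription start, were found for 35 of the 40 genes. CACGTG was present in the window of 10 of these 35 genes (28.6%), and in 8.91% of the 17492 protein-coding genes with such windows. TCACGTGA was present in 5 of 35 (14.3%), and in 1.41% of the protein-coding genes. The motif is known from lysosomal genes and these genes were chosen as such, so the shares are descriptions and carry no test. The 10 genes were Atp6v0d1, Cln3, Ctsa, Ctsd, Ctsl, Fnip1, Gaa, Glb1, Lamp1 and Mcoln1, and the 5 with the longer form were Atp6v0d1, Cln3, Ctsa, Ctsd and Mcoln1.

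The 150 bases just before the start are shown for 4 genes that hold the motif and for Rragd and Creg1, the genes with the largest hyperoxia values, which do not hold it in their windows. Capitals mark CACGTG or, where the longer form is present, TCACGTGA. Lamp1 (chr8:13159011-13159160, plus strand) holds 4 copies, of which the first begins 61 bases before the start. Mcoln1 (chr8:3500369-3500518, plus strand) holds 2, and Ctsd (chr7:142387828-142387977, minus strand) holds 1 here and another farther from the start. Gaa (chr11:119267813-119267962, plus strand) holds 1 copy, beginning 140 bases before the start. Rragd lies at chr4:32982848-32982997, plus strand, and Creg1 at chr1:165763608-165763757, plus strand.
Lamp1: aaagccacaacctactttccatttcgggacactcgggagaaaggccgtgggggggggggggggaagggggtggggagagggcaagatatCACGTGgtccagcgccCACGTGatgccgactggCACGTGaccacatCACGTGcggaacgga
Mcoln1: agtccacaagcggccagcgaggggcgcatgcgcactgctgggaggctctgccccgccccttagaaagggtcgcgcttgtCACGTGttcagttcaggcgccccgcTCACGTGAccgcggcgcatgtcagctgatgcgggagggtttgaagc
Ctsd: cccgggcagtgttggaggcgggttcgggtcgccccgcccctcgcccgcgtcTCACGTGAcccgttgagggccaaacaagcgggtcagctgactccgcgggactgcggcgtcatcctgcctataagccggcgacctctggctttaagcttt
Gaa: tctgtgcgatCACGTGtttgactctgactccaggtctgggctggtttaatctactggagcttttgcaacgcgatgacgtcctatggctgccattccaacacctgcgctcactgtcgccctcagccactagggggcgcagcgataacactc
Rragd: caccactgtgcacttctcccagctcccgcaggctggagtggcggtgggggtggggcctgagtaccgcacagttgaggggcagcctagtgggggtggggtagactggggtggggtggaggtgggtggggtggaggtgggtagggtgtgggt
Creg1: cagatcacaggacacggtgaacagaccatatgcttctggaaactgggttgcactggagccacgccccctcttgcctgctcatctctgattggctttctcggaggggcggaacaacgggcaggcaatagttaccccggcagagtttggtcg
A match is a description of these letters and not a binding site, and a window without a match says nothing of the factor.

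Libraries held 14331749 to 20486735 counts. Markers of lung tissue were high in every library, and the summed level of 8 cardiomyocyte markers, 425 to 978 CPM (counts scaled by TMM to a common library size) in 10 libraries, was 3150 in saline hyperoxia sample 2 and 6970 in ATG hyperoxia sample 2. Saline hyperoxia sample 1 held more skeletal muscle transcripts (338 CPM over 6 markers) and saline hyperoxia sample 2 more thymocyte transcripts (61.4 CPM over 6). By Xist and Y-linked genes, the saline room air group was 3 males, and the other groups held both sexes. The room air groups each had a library in which lysosomal genes stood high. Saline room air sample 1 was the highest of its group in 28 of the 40 genes, and ATG room air sample 2 also in 28 of 40, where these libraries were highest in 33.9% and 36.3% of all genes tested. ATG room air sample 1 was the highest of its group in 1 of 40.

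In hyperoxia most of the 40 genes had higher counts than in room air, after saline and after ATG. Because the genes were chosen with this response known, their hyperoxia values are a description and carry no test. The counts past a threshold below, with any library left out or not, are likewise descriptions and not support. The median log2 fold change, hyperoxia against room air, was 0.42 after saline and 0.41 after ATG, where the medians over all genes tested were -0.0018 and 8e-04. In 24 of the 40 genes all 3 hyperoxia samples lay above all 3 room air samples after both injections, and in 0 they lay below after both. Over all genes tested those shares were 7.25% above and 7.55% below. At an adjusted p under 0.05 (edgeR quasi-likelihood test, Benjamini-Hochberg over all genes tested), 20 genes were higher and 1 lower after saline, and 21 were higher and 0 lower after ATG. The shares of all genes tested past the same threshold were 4.7% higher and 4.5% lower after saline, and 5.41% higher and 6.25% lower after ATG, and nothing is read from the comparison. Of the 40 genes, 19 were past it in both comparisons and 17 in neither. Without the libraries rich in cardiac transcripts the counts were 22 higher and 1 lower, and 19 higher and 0 lower. Leaving out 1 library at a time, 16 (without saline room air sample 2) to 22 (without saline hyperoxia sample 2) genes were higher after saline. After ATG there were 16 without ATG room air sample 1 or 3 and 25 without ATG room air sample 2, and the ATG median ranged from 0.39 to 0.49.

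**Figure D1:**
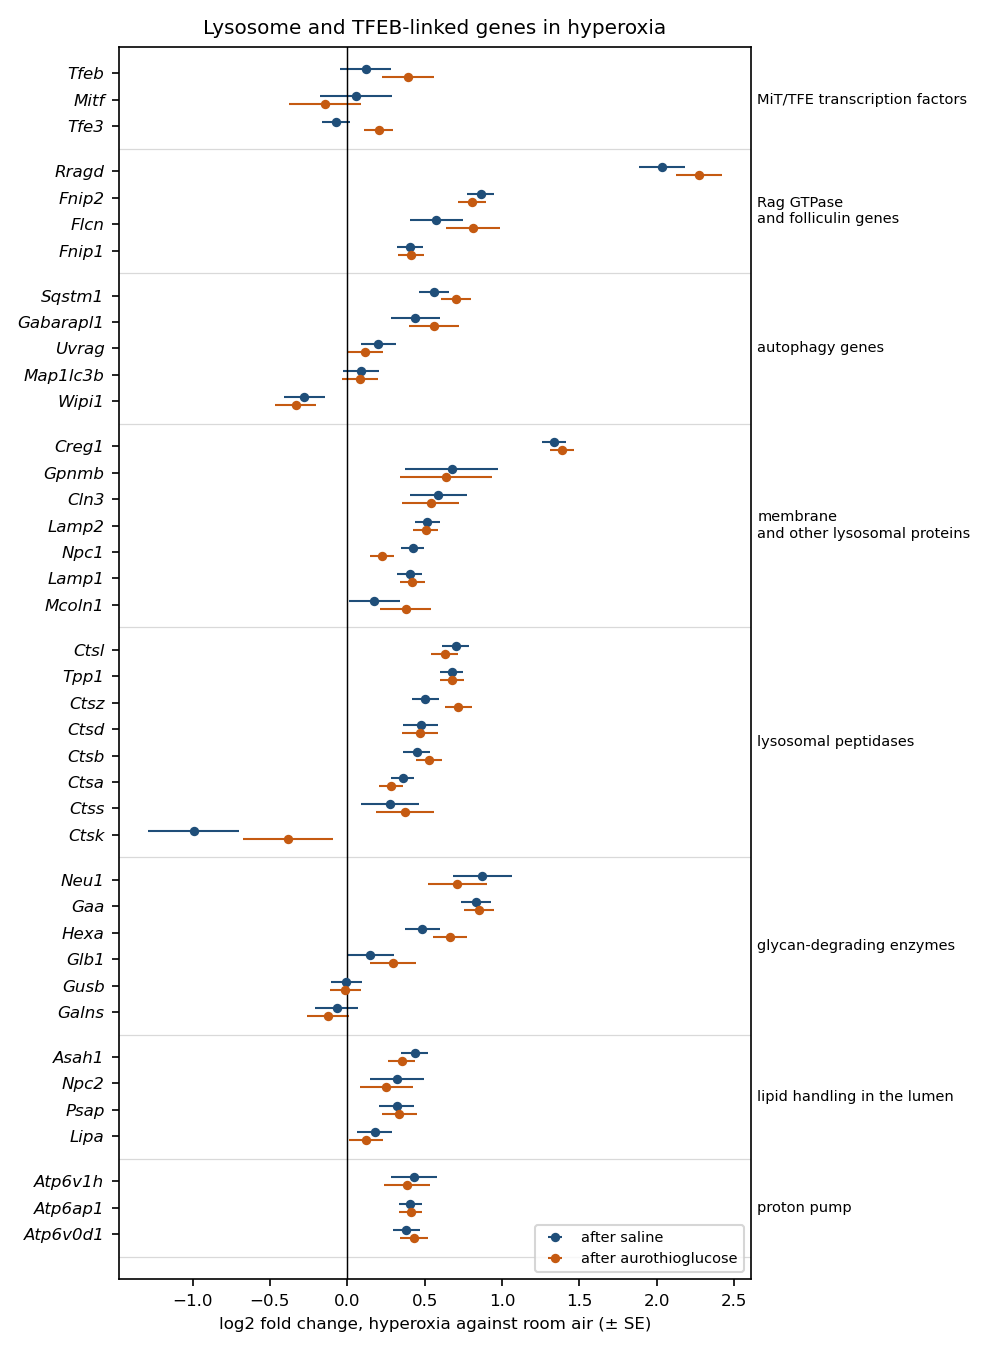
Log2 fold change with its standard error (x axis), hyperoxia against room air, for each of the 40 genes (y axis, grouped by role), after saline (blue) and after aurothioglucose (orange). Rragd and Creg1 lie farthest to the right, the 3 transcription factors lie between -0.14 and 0.39, and Ctsk lies to the left.

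The 3 MiT/TFE transcription factors, which switch on lysosomal genes when nuclear, had log2 fold changes of -0.14 to 0.39 between oxygen conditions. Tfeb (chr17:47737037-47792416) stood at 13.1, 10.2 and 11.7 CPM in saline room air and at 13.1, 12.8 and 12.1 CPM in saline hyperoxia. After ATG, it was at 7.96, 11.2 and 10.8 CPM in room air and 13.3, 14.2 and 11.97 CPM in hyperoxia. The groups overlapped after saline and did not after ATG, with log2 fold changes of 0.12 ± 0.17 (SE) and 0.39 ± 0.17. Tfe3 was at 62.8, 57.02 and 54.4 CPM in saline room air and 57.3, 50.9 and 57.4 CPM in saline hyperoxia. Its levels after ATG were 50.8, 46.8 and 50.9 CPM in room air and 54.8, 60.8 and 55.3 CPM in hyperoxia. Tfe3 likewise overlapped after saline and not after ATG (-0.07 ± 0.09 and 0.20 ± 0.09). Mitf, best known for its role in pigment cells and osteoclasts, was at 14.4, 13.8 and 19.1 CPM in saline room air and 10.8, 21.03 and 17.5 CPM in saline hyperoxia. After ATG it was at 17.5, 23.9 and 18.03 CPM in room air and 15.2, 22.3 and 16.3 CPM in hyperoxia, and all its groups overlapped (0.06 ± 0.23 and -0.14 ± 0.23).

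Rragd encodes RagD, which pairs with RagA or RagB to bring mTORC1 to the lysosome, and is itself a known target gene of TFEB and TFE3. Rragd (chr4:32982998-33022180) was at 13.7, 15.4 and 17.6 CPM in saline room air and at 70.2, 59.98 and 61.6 CPM in saline hyperoxia. The ATG samples were at 14.1, 18.1 and 14.7 CPM in room air and 64.7, 90.8 and 71.6 CPM in hyperoxia. Every hyperoxia sample stood above every room air sample, and ATG hyperoxia sample 2 was the highest of the 12. The differences were 4.10-fold after saline (log2 2.03 ± 0.15) and 4.84-fold after ATG (2.28 ± 0.15), the largest of the 40 genes in both comparisons.

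Folliculin, encoded by Flcn, forms a complex with FNIP1 or FNIP2 that activates RagC and RagD and so promotes the phosphorylation of TFEB. Flcn (chr11:59791408-59810039) stood at 34.8, 34.8 and 30.1 CPM in saline room air and 59.2, 40.1 and 49.2 CPM in saline hyperoxia. The ATG groups were at 26.4, 33.1 and 22.1 CPM in room air and 42.9, 58.3 and 42.2 CPM in hyperoxia. No groups overlapped within an injection, but samples of a group differed, the highest being saline hyperoxia sample 1 and ATG hyperoxia sample 2 (0.57 ± 0.17 and 0.81 ± 0.17 on the log2 scale). Fnip2 was at 52.6, 57.1 and 59.2 CPM in saline room air and at 111, 98.3 and 97.5 CPM in saline hyperoxia. After ATG the values were 57.9, 57.3 and 61.6 CPM in room air and 107, 110.0 and 92.7 CPM in hyperoxia. All 6 hyperoxia samples of Fnip2 lay above all 6 room air samples (0.86 ± 0.09 and 0.81 ± 0.09). Fnip1 differed in the same direction, with 60.2 to 62.8 CPM in saline room air and 76.6 to 86.6 CPM in saline hyperoxia, by 0.41 and 0.41 log2 units.

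Among the 5 autophagy genes, Sqstm1, which encodes the cargo receptor p62, was the one with separate groups and a log2 difference over 0.5 after both injections. Sqstm1 stood at 91.9, 81.6 and 73.6 CPM in saline room air and 116, 117 and 131 CPM in saline hyperoxia. In the ATG groups it was at 85.1, 99.6 and 98.8 CPM in room air and 158, 159 and 145 CPM in hyperoxia. ATG hyperoxia held the 3 highest samples, and the log2 fold changes were 0.56 ± 0.10 and 0.70 ± 0.10. Of its exon bases, 17.3% overlap Mrnip on the opposite strand, and with strand handling not stated a share of its counts is uncertain. Gabarapl1, an ATG8-family protein of the autophagosome membrane, differed by 0.44 ± 0.16 and 0.56 ± 0.16 with no overlap, and 28.3% of its exon bases also overlap an opposite-strand gene. Map1lc3b, which encodes LC3B, differed by 0.09 and 0.08, and Uvrag, a subunit of a PI3-kinase complex in autophagy, by 0.20 and 0.11. Their groups overlapped. Wipi1, a phosphoinositide-binding protein of early autophagosomes, was lower, with log2 fold changes of -0.28 and -0.33 and no overlap after ATG.

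Creg1, a glycoprotein of the endolysosomal system that is also secreted, had the second largest hyperoxia difference. Creg1 (chr1:165763758-165775309) was at 85.2, 82.6 and 80.1 CPM in saline room air and at 220.4, 193 and 213 CPM in saline hyperoxia. After ATG it was at 94.2, 105 and 106 CPM in room air and 279, 253 and 267 CPM in hyperoxia. The 4 groups did not overlap at all, in the order saline room air, ATG room air, saline hyperoxia, ATG hyperoxia. Hyperoxia against room air gave 2.52-fold after saline (log2 1.34 ± 0.08) and 2.61-fold after ATG (1.39 ± 0.08). No exon base of Rragd or Creg1 overlaps another gene in GENCODE vM21, and no 75-base stretch of them occurs in another gene's transcripts.

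**Figure D2:**
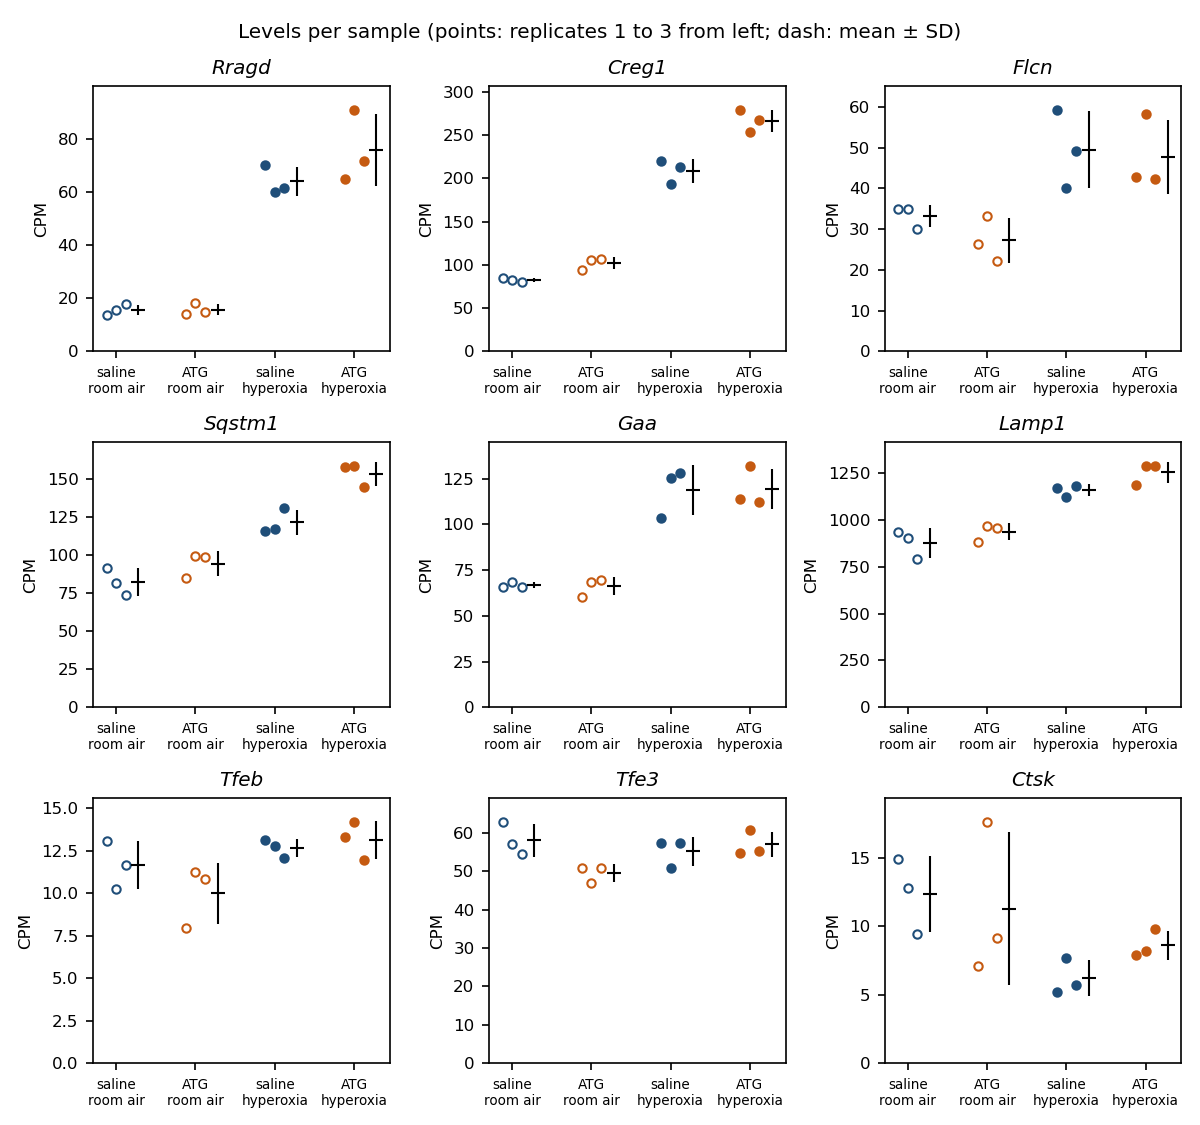
Level in CPM (y axis, from 0) of 9 genes in each of the 12 samples (x axis, by group, room air open and hyperoxia filled, saline blue and ATG orange), with group mean ± SD (n = 3). Rragd and Creg1 separate completely by oxygen condition, Tfeb and Tfe3 overlap between oxygen conditions after saline and not after ATG, and Ctsk is lower in saline hyperoxia than in saline room air.

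LAMP1 and LAMP2 are the most abundant proteins of the lysosomal membrane. Lamp2 was at 598, 563 and 523 CPM in saline room air and 801, 798 and 813 CPM in saline hyperoxia. Its ATG values were 585, 637 and 565 CPM in room air and 782, 862 and 893 CPM in hyperoxia, with no overlap between oxygen conditions (0.52 ± 0.08 and 0.51 ± 0.08). Lamp1 ranged from 789 to 935 CPM in saline room air and from 1121 to 1182 CPM in saline hyperoxia, also without overlap (0.40 and 0.42). Cln3, the lysosomal membrane protein altered in juvenile Batten disease, was at 10.9, 12.9 and 10.9 CPM in saline room air and 16.6, 14.2 and 21.3 CPM in saline hyperoxia. Following ATG, Cln3 was at 9.80, 12.6 and 9.82 CPM in room air and 12.9, 17.3 and 16.7 CPM in hyperoxia. Its groups did not overlap, with saline hyperoxia sample 3 the highest (0.59 ± 0.18 and 0.54 ± 0.18). Npc1, the cholesterol exporter of the lysosome, differed by 0.42 and 0.22 without overlap. Gpnmb, a glycoprotein of macrophages and melanocytes, differed by 0.67 ± 0.30 and 0.64 ± 0.30, and Mcoln1, the lysosomal calcium channel TRPML1, by 0.17 ± 0.16 and 0.38 ± 0.16. Both of the last genes overlapped after 1 injection.

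Of the 8 lysosomal peptidases, 6 had higher hyperoxia samples with no overlap after both injections. Ctsl, a cysteine protease, was at 215, 205 and 189 CPM in saline room air and 340.0, 348 and 303 CPM in saline hyperoxia. After ATG the levels were 212, 232 and 234 CPM in room air and 321, 386 and 341 CPM in hyperoxia. All hyperoxia samples were above all room air samples (0.70 ± 0.09 and 0.63 ± 0.09), and 32.9% of its exon bases overlap other annotated genes. Ctsz, a carboxypeptidase, was at 57.1, 54.7 and 53.9 CPM in saline room air and 81.4, 75.1 and 78.6 CPM in saline hyperoxia. In the ATG groups it was at 48.6, 60.3 and 57.4 CPM in room air and 92.7, 90.7 and 90.00 CPM in hyperoxia. ATG hyperoxia held its 3 highest samples (0.51 ± 0.09 and 0.72 ± 0.09). Tpp1, a tripeptidyl peptidase, was at 260.2, 274 and 233 CPM in saline room air and 409, 393 and 421 CPM in saline hyperoxia. Its ATG samples were at 275, 268 and 254 CPM in room air and 409, 426 and 436 CPM in hyperoxia. Tpp1 was among the genes with the least spread within groups (0.67 ± 0.08 and 0.67 ± 0.08). The aspartic protease Ctsd and the proteases Ctsb and Ctsa differed by 0.28 to 0.53. Of their exon bases, 34.4% (Ctsd), 12.8% (Ctsb) and 17.4% (Ctsa) overlap other annotated genes, so their counts are uncertain. Ctss, a protease of antigen-presenting cells, overlapped (0.28 and 0.37).

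Ctsk, the collagen-degrading cathepsin of osteoclasts and fibroblasts, was the exception in this group and is named after its values were seen. It was at 14.9, 12.8 and 9.42 CPM in saline room air and 5.25, 7.70 and 5.72 CPM in saline hyperoxia. After ATG it was at 7.10, 17.6 and 9.16 CPM in room air and 7.89, 8.19 and 9.85 CPM in hyperoxia. The saline hyperoxia samples were all below the saline room air samples, while the ATG groups overlapped, with ATG room air sample 2 above the rest (-0.99 ± 0.30 and -0.38 ± 0.29). It is the 1 gene counted as lower after saline, and that count was 0 with limma-voom, with sex as a covariate and without any 1 of the 6 saline libraries.

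Among 6 glycan-degrading enzymes, 3 differed without overlap and 3 overlapped. Gaa, the acid glucosidase that digests lysosomal glycogen, stood at 65.8, 68.8 and 65.9 CPM in saline room air and 103, 125 and 128 CPM in saline hyperoxia. With ATG it was at 60.5, 68.7 and 69.4 CPM in room air and 114, 132 and 112 CPM in hyperoxia. The gap between oxygen conditions was wider than the spread of any group (0.83 ± 0.10 and 0.85 ± 0.10). Neu1, a sialidase, was at 14.03, 14.5 and 18.02 CPM in saline room air and 32.5, 26.9 and 25.9 CPM in saline hyperoxia. With ATG, Neu1 was at 13.3, 23.95 and 15.2 CPM in room air and 25.7, 29.9 and 30.1 CPM in hyperoxia. ATG room air sample 2 was high for Neu1, and without it the ATG value of 0.71 ± 0.19 became 1.02, beside 0.87 ± 0.19 after saline. Hexa, a hexosaminidase subunit, differed by 0.49 and 0.66, and 12.8% of its exon bases overlap an opposite-strand gene. Gusb, the glucuronidase, differed by -0.01 ± 0.10 and -0.01 ± 0.10, the galactosidase Glb1 by 0.15 and 0.30, and the sulfatase Galns by -0.07 and -0.12, all with overlap.

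The genes for lipid handling in the lumen and for the proton pump had smaller differences of 1 sign. Asah1, the acid ceramidase, differed by 0.44 ± 0.09 and 0.35 ± 0.09, and Psap, the precursor of the saposins that present lipids to hydrolases, by 0.32 ± 0.11 and 0.34 ± 0.11, both without overlap. Npc2, which hands cholesterol to NPC1, differed by 0.32 and 0.25, and Lipa, the acid lipase, by 0.18 and 0.12, and both overlapped after ATG. The V-ATPase subunit Atp6v0d1 differed by 0.38 and 0.43, the accessory protein Atp6ap1 by 0.41 and 0.41, and the subunit Atp6v1h by 0.43 and 0.38. Only the last overlapped, after ATG.

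Levels per kilobase of exon spanned a wide range, and their order is given without a test. The length is that of all annotated exons of a gene merged, so the order also depends on which transcripts are annotated. In saline room air Lamp1 stood at 328 CPM per kb, followed by Ctsd at 210.4, Psap at 109.7 and Npc2 at 89.8. At the low end were Cln3 at 2.00, Tfeb at 2.06, Mcoln1 at 2.22 and Atp6v1h at 2.52 CPM per kb. Rragd moved from place 35 of 40 in saline room air (3.01 CPM per kb) to place 23 in saline hyperoxia (12.4). Creg1 moved from place 13 (35.00 CPM per kb) to place 5 (88.4). The 10 genes with CACGTG in the window had a median hyperoxia log2 fold change of 0.40 after saline and 0.43 after ATG. For the 25 with a window and no CACGTG, Rragd and Creg1 among them, the medians were 0.41 and 0.41. These medians are descriptions, and a link between the motif and the response was not tested.

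Markers of cells rich in lysosomes were measured beside these genes. The summed level of 12 macrophage markers was 2780 to 3334 CPM in saline room air and 1663 to 2228 CPM in saline hyperoxia, and 2835 to 3546 and 1669 to 2413 CPM after ATG. Lyz2, the lysozyme of macrophages and alveolar type 2 cells, made up most of these sums, so they mainly follow Lyz2. The 12 markers did not move together: 6 had a positive and 6 a negative log2 value after saline (median 0.08). After ATG 7 were positive and 5 negative (median 0.19). Of the 12 markers, Lyz2 was lower after saline (log2 -0.71, edgeR adjusted p = 0.0115) and after ATG (-0.75, adjusted p = 0.0062), Mrc1 was lower after ATG (-0.36, adjusted p = 0.0268), and none was called higher. Cd68, a lysosomal membrane protein of macrophages, had log2 fold changes of 0.45 and 0.47 that did not pass (adjusted p = 0.201 and 0.156). The summed level of 8 alveolar type 2 markers was 12774 to 13594 CPM in saline room air and 14105 to 15455 CPM in saline hyperoxia, and 14806 to 16971 and 14460 to 16779 CPM after ATG. Of these 8 markers, 4 were higher and 1 lower after saline, and 0 higher and 2 lower after ATG. For 9 neutrophil markers the sums were 111 to 156 and 84.0 to 279 CPM after saline, and 117 to 230 and 231 to 258 CPM after ATG. No marker of these lists was at 0 in all samples of a group. In bulk lung, fewer cells of a type and less RNA per cell cannot be told apart, and the part of these cells in the values above was not tested.

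The rest of the pathway was examined through 136 further genes in 5 lists made by function, of which 135 were tested. Earlier results of these data were known when the lists were made. Their calls and p-values are therefore not independent support. Sesn2, which encodes a leucine sensor that restrains mTORC1, was the 1 gene past the threshold among 26 other mTORC1 and Rag genes, in both hyperoxia comparisons, a share below the 4.7% and 5.41% of all genes tested that were called higher. Sesn2 was at 7.53, 9.06 and 8.92 CPM in saline room air and 27.99, 42.2 and 44.4 CPM in saline hyperoxia. ATG samples were at 10.1, 9.69 and 11.7 CPM in room air and 47.8, 27.5 and 35.6 CPM in hyperoxia. The hyperoxia samples were all above the room air samples, and Sesn2 rose by 2.17 ± 0.21 log2 units after saline (edgeR adjusted p = 4.15e-05) and 1.82 ± 0.21 after ATG (adjusted p = 0.000121). Rragc, the close relative of Rragd, was at 89.4 to 105 CPM in saline room air and 99.9 to 110.4 CPM in saline hyperoxia, and did not pass (log2 0.12 ± 0.11, adjusted p = 0.577, and 0.24 ± 0.11, adjusted p = 0.19). Tfec, the fourth MiT/TFE gene, had a log2 fold change of 0.00 after saline and -0.32 after ATG (adjusted p = 0.999 and 0.395). DESeq2 called 4 genes of this list after saline and 2 after ATG, and edgeR called 2 after saline without saline room air sample 1 or 2, and 2 after ATG without ATG room air sample 2. Over the list, the median was 0.11 log2 units after saline and 0.13 after ATG.

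Of 19 other V-ATPase subunits, 18 were tested, and 9 rose and 1 fell after saline and also after ATG, at the same threshold. Over all genes tested, 4.7% were called higher and 4.5% lower after saline, and 5.41% and 6.25% after ATG. Atp6v1a, the catalytic subunit, was at 212 to 239 CPM in saline room air and 323 to 369 CPM in saline hyperoxia and rose by 0.63 ± 0.08 and 0.54 ± 0.08 (edgeR adjusted p = 0.000411 and 0.000823). The membrane subunit Atp6v0a1 rose by 0.46 and 0.47, and the stalk subunit genes Atp6v1c1 and Atp6v1e1 by 0.53 and 0.43 after saline and 0.48 and 0.54 after ATG. The saline call of Atp6v1e1 was lost without saline room air sample 1 or 3 or saline hyperoxia sample 3 (adjusted p = 0.0692, 0.0811 and 0.0885). The gene that fell was Atp6v1c2, a tissue-restricted form of the C subunit, by 0.57 and 0.52 (adjusted p = 0.0323 and 0.0411), named after its values were seen. Atp6v0c, the proton-carrying ring subunit, had 0 or 1 count per library and was not tested. With read assignment not stated, so low a count is not read as absence of its transcript. The list's medians were 0.36 and 0.35, and its lowest values, -1.47 after saline and -1.38 after ATG, did not pass. After saline the 10 calls became 4 without saline room air sample 3 and 6 without saline hyperoxia sample 3.

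Among 32 other lysosomal enzymes and cofactors, 9 rose after saline and 7 after ATG, and 0 fell. These counts stand beside 4.7% and 5.41% of all genes tested called higher. Galc, which degrades galactosylceramide, was at 33.1 to 39.8 CPM in saline room air and 56.1 to 58.3 CPM in saline hyperoxia and rose by 0.65 ± 0.12 and 0.66 ± 0.12 (edgeR adjusted p = 0.00416 and 0.00239). Smpd1, the acid sphingomyelinase, rose by 0.47 and 0.33. Its ATG call was lost without both cardiac-rich libraries (adjusted p = 0.0678), in a fit of the 6 ATG samples (0.0531), and without ATG room air sample 1 (0.0692), ATG room air sample 3 (0.0505) or ATG hyperoxia sample 2 (0.0562). The list's medians were 0.22 and 0.15. Without saline room air sample 3 or saline hyperoxia sample 3 the saline calls fell to 4, and without ATG room air sample 3, or with the 6 ATG samples alone, the ATG calls fell to 4.

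In the list of 23 other membrane and sorting genes, 7 rose and 0 fell after saline, and 8 rose and 1 fell after ATG. The shares of all genes tested were 4.7% higher and 4.5% lower after saline, and 5.41% and 6.25% after ATG. Scarb2, the receptor that carries glucocerebrosidase to the lysosome, was at 80.4 to 87.2 CPM in saline room air and 110.2 to 128 CPM in saline hyperoxia and rose by 0.53 ± 0.09 and 0.45 ± 0.09 (edgeR adjusted p = 0.0029 and 0.00515). The membrane protein Laptm4b rose by 0.60 and 0.59, and Igf2r, the mannose 6-phosphate receptor that sorts enzymes to the lysosome, by 0.48 and 0.44. Ostm1, partner of a lysosomal chloride transporter, rose by 0.59 and 0.42, and its ATG call was lost without ATG room air sample 1 or 3 or ATG hyperoxia sample 3 (adjusted p = 0.0556, 0.0648 and 0.0584). The gene that fell after ATG was Tpcn1, a lysosomal cation channel, by 0.34 (adjusted p = 0.0198, and -0.04 after saline, adjusted p = 0.841), named after its values were seen. The medians were 0.27 and 0.19, and the 9 calls after ATG became 5 without ATG room air sample 1 and 4 without ATG room air sample 3.

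Of 36 other autophagy genes, 2 rose and 0 fell after saline, and 4 rose and 1 fell after ATG, and the medians were 0.10 and 0.06. The saline count is a share near the 4.7% of all genes tested that were called higher, and the ATG count stands beside 5.41% higher and 6.25% lower. Optn, a cargo receptor of mitophagy, was at 18.6, 20.4 and 16.1 CPM in saline room air and 36.6, 30.6 and 26.9 CPM in saline hyperoxia, without overlap. Optn rose by 0.77 ± 0.13 and 0.64 ± 0.13 (edgeR adjusted p = 0.00277 and 0.00606). The ATG8-family gene Gabarap rose by 0.39 and 0.33 (adjusted p = 0.0134 and 0.026). After ATG, Vamp8, a fusion protein of autophagosomes and lysosomes, rose by 0.46 (adjusted p = 0.0364), and the kinase gene Ulk2, which starts autophagy, fell by 0.39 (adjusted p = 0.0173). These last 3 calls depended on which libraries entered the fit. Gabarap lost its call after saline without saline room air sample 3 or saline hyperoxia sample 1 or 3 (adjusted p = 0.0714, 0.054 and 0.0519). After ATG, Gabarap, Ulk2 and Vamp8 each lost theirs without ATG room air sample 1 (0.0736, 0.101 and 0.135) or 3 (0.0976, 0.0644 and 0.1), Gabarap and Vamp8 without ATG hyperoxia sample 2 (0.0779 and 0.132), Gabarap and Ulk2 without ATG hyperoxia sample 3 (0.0548 and 0.0595), and Ulk2 without ATG hyperoxia sample 1 (0.0578). Without both cardiac-rich libraries the ATG calls of Gabarap (0.0774) and Vamp8 (0.074) were lost, with sex as a covariate likewise (0.0555 and 0.0722), and with the 6 ATG samples alone those of Gabarap (0.0529) and Ulk2 (0.0548). The 2 saline calls became 1 without saline room air sample 3 or saline hyperoxia sample 1 or 3. The 5 ATG calls became 1 without ATG room air sample 1, 2 without ATG room air sample 3 or ATG hyperoxia sample 3, and 3 without ATG hyperoxia sample 1 or 2.

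**Figure D3:**
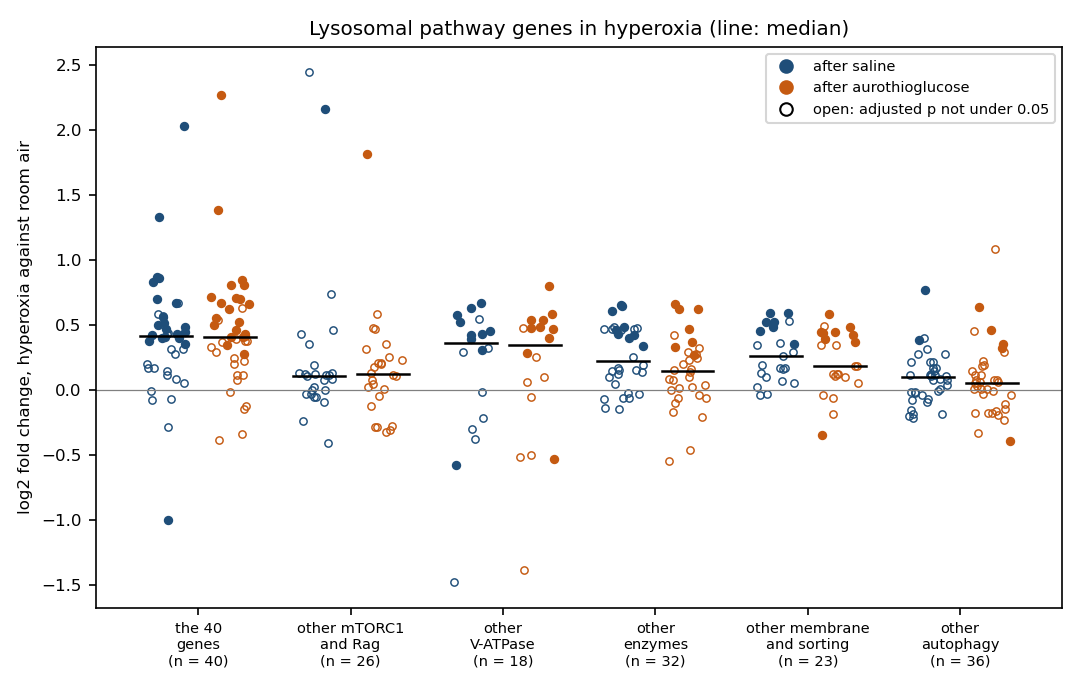
Log2 fold change, hyperoxia against room air (y axis), of the 40 genes and of the 5 lists of further pathway genes (x axis), after saline (blue) and after aurothioglucose (orange). Filled points have an adjusted p under 0.05. The black line is the median, which is 0.42 and 0.41 for the 40 genes and lowest for other autophagy genes (0.10 and 0.06). The 40 genes were chosen with this response known, so their filled points and median are descriptions and not tests.

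CACGTG was present in the promoter windows of 5 of 25 mTORC1 and Rag genes with a window, 3 of 14 V-ATPase subunits, 8 of 25 enzymes, 3 of 16 membrane and sorting genes and 5 of 29 autophagy genes (20%, 21.4%, 32%, 18.8% and 17.2%), beside the 8.91% of protein-coding genes. Of the genes named above, Rragc, Atp6v1a and Igf2r were among them. The lists were made from the same pathway, so these shares are likewise descriptions and carry no test.

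The study's drug question, whether ATG moved these genes, rests on comparisons that the rule for choosing the genes did not use. Earlier results of these data were known when the genes were chosen, and the hyperoxia samples also entered that rule. No gene of the 40 passed in room air, in hyperoxia or averaged over both oxygen conditions (edgeR quasi-likelihood test). At an unadjusted p under 0.05 there were 2, 3 and 2 genes, DESeq2 called 0, 1 and 2, and limma-voom called 0 in each. Over all genes tested the shares past the adjusted threshold were 0%, 0.00634% and 0.0444%. An unadjusted p under 0.05 was found for 949, 897 and 1335 of them. All 3 ATG samples lay above all 3 saline samples in 2 of the 40 genes in room air and in 8 in hyperoxia. They lay below in 1 and 0. Over the 15761 genes tested, those counts were 986 and 874 above, and 901 and 873 below. The median log2 fold change, ATG against saline, of the 40 genes was 0.06 in room air and 0.07 in hyperoxia, beside 0.01 and 9e-04 over all genes. Averaged over both conditions, 33 of the 40 genes had a positive value, as did 8000 of the 15761 genes tested. These medians moved with the libraries that entered the fit. The room air median was -0.0351 without ATG room air sample 2, 0.0164 without saline room air sample 3, 0.0935 without ATG room air sample 1 and 0.1004 without saline room air sample 1. The hyperoxia median was 0.0383 without both cardiac-rich libraries, and the averaged median of 0.0679 became 0.0197 without ATG room air sample 2 and 0.0452 without both cardiac-rich libraries.

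Creg1 had the smallest p of the 40 genes for ATG. In the values given above, the 3 ATG samples lay above the 3 saline samples in room air (94.2 to 106 against 80.1 to 85.2 CPM) and in hyperoxia (253 to 279 against 193 to 220.4 CPM). It was the 1 gene of the 40 with no overlap upward in both conditions, and 0 had none downward, where the shares of all genes tested were 0.939% and 0.571%. The log2 fold change was 0.30 ± 0.08 in room air, 0.35 ± 0.08 in hyperoxia and 0.33 ± 0.06 averaged (edgeR adjusted p = 0.0592), which misses the threshold. DESeq2 gave an adjusted p of 0.000124, the edgeR fit with no filter on low counts 0.0248 and that without ATG room air sample 1 0.0289. Over all alternatives the adjusted p ran from 0.000124 to 0.206, and the log2 fold change from 0.30 to 0.35.

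Sqstm1 came next, with a log2 fold change of 0.20 ± 0.10 in room air, 0.34 ± 0.09 in hyperoxia and 0.27 ± 0.07 averaged (edgeR adjusted p = 0.222). Its ATG samples were above its saline samples in hyperoxia and overlapped them in room air. With DESeq2 the adjusted p of Sqstm1 was 0.0493, and over the other alternatives it ran from 0.142 to 0.538. Ctsd followed, at 556, 503 and 425 CPM in saline room air and 469, 653 and 535 CPM in ATG room air. In hyperoxia Ctsd was at 692, 699 and 671 CPM after saline and 771, 726 and 796 CPM after ATG. The groups overlapped in room air and not in hyperoxia, and the averaged value of 0.16 ± 0.08 did not pass (adjusted p = 0.638). Of the exon bases of Ctsd, 34.4% lie in a same-strand gene model, so its counts are uncertain. The other genes with an unadjusted p under 0.05 were Tfe3 in room air (log2 -0.23 ± 0.09, edgeR adjusted p = 0.818) and Ctsz in hyperoxia (0.22 ± 0.09, adjusted p = 0.78). Tfe3 lies on the X chromosome, and saline room air was 3 males where ATG room air was 1 male and 2 females. The part of sex in the Tfe3 value was not tested. For Rragd the drug values were 0.00 ± 0.15 in room air and 0.24 ± 0.14 in hyperoxia (adjusted p = 1 and 0.895).

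**Figure D4:**
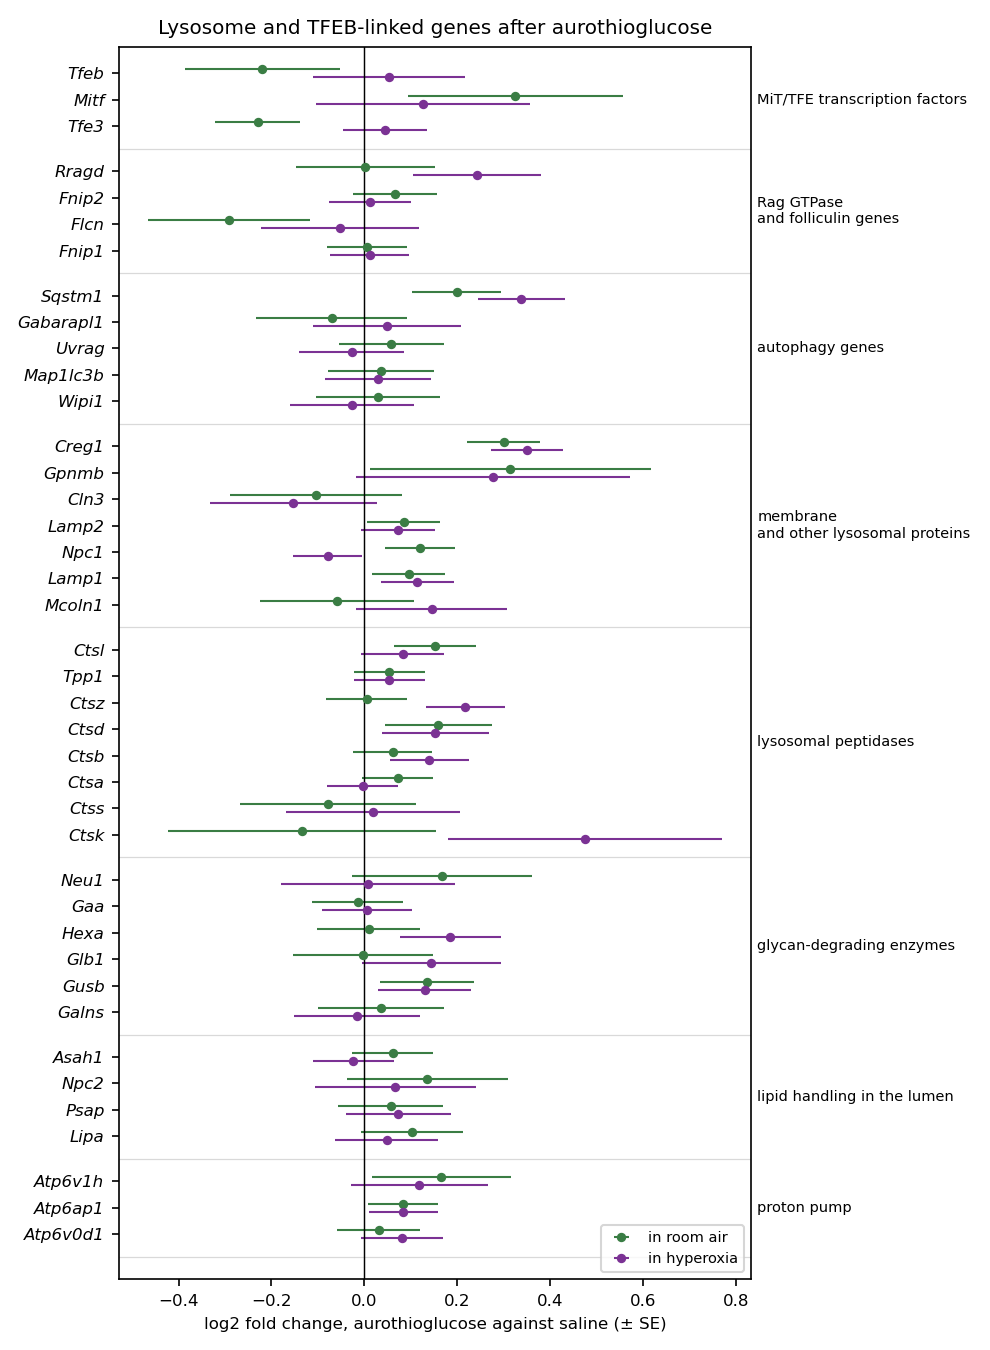
Log2 fold change with its standard error (x axis), aurothioglucose against saline, for each of the 40 genes (y axis, grouped by role), in room air (green) and in hyperoxia (purple). Values run from -0.29 to 0.48, and those of Creg1 (0.30 and 0.35) lie above 0 by more than 3 standard errors in both conditions.

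Cell type markers were measured beside these drug values, and none passed the adjusted threshold in them. The alveolar type 2 sums were 14806 to 16971 CPM in ATG room air and 12774 to 13594 CPM in saline room air, and 8 of 8 of these markers had a positive log2 value there (unadjusted p under 0.05 in 6, edgeR adjusted p of 0.290 or more). In hyperoxia 5 of these 8 had a positive value, with a median of 0.04. Of the neutrophil markers 8 were tested, and in hyperoxia 8 of 8 had a positive value (median log2 0.77, unadjusted p under 0.05 in 2, edgeR adjusted p of 0.589 or more), while in room air 5 of 8 did (median 0.29). Of the thymocyte markers 4 were tested, and in hyperoxia 4 of 4 had a negative value (median log2 -3.48, unadjusted p under 0.05 in 4, edgeR adjusted p of 0.535 or more). Their sums were 3.96, 61.4 and 21.7 CPM in saline hyperoxia and 1.35 to 3.25 CPM in ATG hyperoxia. The macrophage sums overlapped between injections in both oxygen conditions. The part of these cells in the drug values was not tested.

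Whether the hyperoxia difference itself changed with ATG was tested as the interaction. Of the 40 genes, 0 passed (edgeR adjusted p = 1 for each), 1 had an unadjusted p under 0.05 (Tfe3, log2 0.27 ± 0.13), and DESeq2 and limma-voom called 0. Over all genes tested 0% passed, and 465 had an unadjusted p under 0.05. With sex as a covariate, and with DESeq2 or limma-voom, 0 of the 40 genes had an unadjusted p under 0.05. The difference between the ATG and saline responses was 0.24 ± 0.20 log2 units for Rragd, 0.05 ± 0.11 for Creg1 and 0.61 ± 0.41 for Ctsk, the widest of the 40. In 37 of the 40 genes it was under 0.25 in size, with errors that do not exclude differences of that order.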

How the data were processed

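The authors deposited raw counts per gene for 12 libraries; amplified cDNA (NuGEN Ovation V2, Nextera XT) was sequenced as paired 75 bp reads, per the labels' protocols. Per the submitters' processing notes, the tools were Bowtie2, Cufflinks and DESeq and the build mm10, without roles or versions. How reads were assigned to genes and strands is not given in the sources used here, so genes with overlapping exons are uncertain. Groups came from the labels.

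The 15761 genes that passed filterByExpr (count of 10, total of 15) held 99.96% of the counts. TMM-scaled counts of all 12 samples entered a single edgeR quasi-likelihood fit with a mean for each group (edgeR 4.0.16, R 4.3.3), with 8 residual degrees of freedom and two-sided p-values adjusted by Benjamini-Hochberg over all genes tested (threshold 0.05). A standard error is the log2 fold change divided by the square root of F. The biological coefficient of variation (common estimate) was 18.7%, and replicates differed beyond counting noise (chi-square per degree of freedom 6.83 to 41.9). The code was tested on simulated data. Gene positions come from RefSeq, exon lengths and overlaps from GENCODE vM21, and promoters from RefSeq (GRCm38.p6).

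Alternatives were DESeq2 1.42.0, limma-voom (limma 3.58.1), RLE scaling, no filter, a replicate block, only the 6 samples compared, sex as a covariate, omission of both cardiac-rich libraries and omission of each library. Members, lists and markers were chosen with earlier results of these data known. Sample values are given for Rragd, Creg1, Tfeb, Tfe3, Mitf and Flcn, for members without overlap in either hyperoxia comparison and a log2 change of at least 0.5 in both, and for the 3 with the smallest drug p. Of each list, up to 4 genes with the smallest adjusted p are named, and Rragc, Tfec and Gabarap whatever theirs; some genes this rule would name are not reported here. Of the 136 list genes, Atg101, Castor1, Castor2 and Rubcn were found by an older symbol. Of the markers, Adgre1 was found by an older symbol and Ly6g was not found.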

Additional observations from a re-analysis of the deposited data

How the results depend on the processing

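The median drug value of the 40 genes in room air changed sign without ATG room air sample 2 (-0.0351). For the drug averaged over both oxygen conditions, the 0 genes of the 40 called by edgeR became 2 with DESeq2 and 1 with no filter, and in hyperoxia 1 with DESeq2. Leaving out 1 library gave 0 to 1. Over all genes, the drug calls were 0, 1 and 7 with edgeR (room air, hyperoxia, averaged) and 16, 11 and 94 with DESeq2, the averaged count being 24 with no filter. After saline the mTORC1 and Rag list went from 1 call to 4 with DESeq2, 2 with limma-voom and 2 without both cardiac-rich libraries, and after ATG to 2 with DESeq2. In the fit of 6 samples after ATG, the enzyme list went from 7 to 4 and the autophagy list from 5 to 2, and the latter was 2 with sex as a covariate and 3 without both cardiac-rich libraries. Leaving out 1 library gave 1 to 2 calls (mTORC1 and Rag), 4 to 8 (V-ATPase), 4 to 9 (enzymes) and 1 to 3 (autophagy) after saline, and 1 to 2 (mTORC1 and Rag), 4 to 8 (enzymes), 4 to 8 (membrane and sorting) and 1 to 4 (autophagy) after ATG. The median of the 40 genes after ATG ranged from 0.39 to 0.49. For these changes the cause was not tested, and omission leaves fewer samples.

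Replicate numbers recur across groups, but same-numbered samples did not consistently deviate together. Their r ran from -0.1561 to 0.2803 over 18 pairs, and from -0.2718 to 0.2217 for different numbers. The highest r, 0.2803, was between saline hyperoxia sample 2 and ATG hyperoxia sample 2, the cardiac-rich libraries. Of 12 samples, 5 correlated best with their own number. With the replicate block the saline calls of the mTORC1 and Rag list went from 1 to 2, the drug calls over the 40 genes were 0 in each comparison, and the adjusted p of Creg1 was 0.0981.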
